A study of Schizosaccharomyces pombe with 16 samples.

Results

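RNA of fission yeast cells that lack Red1 was compared with RNA of wild type cells on 2 tiling arrays, out of 16 arrays for 9 mutants of the RNA decay machinery. Both arrays whose titles name *red1Δ* were taken, and on each the signal of the mutant was set against the signal of the wild type at all 174063 tiling probes. The deletion strain carried the label p934 and its wild type control the label p918. Both were grown at 30 °C in rich medium with adenine to mid-log phase, and the 2 arrays were described as biological replicates. The deposited text does not say whether more than 1 clone of the deletion strain was used. RNA was depleted of ribosomal RNA and copied with oligo(dT) and random hexamer primers. The values of other mutants used for comparison come from the same kind of experiment: *iss10Δ* (p935) and *cid14Δ* (p938) had the wild type control p918, *rrp6Δ* (p74), *pab2Δ* (p741) and *sen1Δ* (p850) had other wild type strains (p20, p345 and p344), and the control of the single *mmi1Δ mei4-P572* array carried *mei4-P572* as well. A single *rmn1Δ* array, with a wild type control and cells grown at 30 °C, was also among the 16 arrays used. The temperature-sensitive *mtl1-17* cells and their *mtl1-flag* control were instead grown at 23 °C and kept at 37 °C for 4 h. The mutant cDNA carried Cy5 and the wild type cDNA Cy3 on both arrays, so the dyes were not swapped, and a dye bias of a probe is part of every ratio against wild type.

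Red1 is a zinc-finger protein of the fission yeast nucleus. It forms the core of the MTREC complex together with the RNA helicase Mtl1, and MTREC hands RNAs to the nuclear exosome, whose nuclease Rrp6 degrades them from the 3′ end. The pathway is best known for the removal of meiotic mRNAs from vegetative cells, in which Mmi1 recognizes the RNA and Iss10 links Mmi1 to Red1. Cryptic unstable transcripts, which arise from promoters and from the antisense strand of genes, are also substrates of the nuclear exosome.

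Of the 174063 probes, 147002 lay in a dense part of the array, with a nominal step of 40 bp between probes and 80 bp on each strand, and 27061 in a sparser part. Odd and even probe numbers read opposite strands. The files pair no probe with a gene, a sequence or a position, so transcripts are named here by their first and last probe. Neither the *red1* gene nor the meiotic mRNAs could be looked up, and lengths in bp are nominal. Sense units were runs of neighbouring probes on a strand with signal in the wild type channels of 11 arrays of other mutants, with a smoothed log2 signal above 7.73. The word sense stands here for signal in wild type, since no strand could be matched to a gene. There were 4072 such units, with a median of 20 probes on the dense part. The remaining probes were divided into windows of 6 probes, or 3 on the sparse part. A window was called silent where under 50% of its measurements in those wild type channels were well above background, and dim otherwise, which gave 12902 silent and 3839 dim windows. The *red1Δ* arrays played no part in these definitions. In the control channel of the *red1Δ* arrays, 92.9% and 95.0% of the measurements in units were well above background, against 11% and 17.8% of those in silent windows.

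The 2 arrays gave similar ratios. Over the 4072 units, Pearson's r between them was 0.896 and Spearman's rho 0.824, and over the silent windows 0.892 and 0.809. These correlations run across features within an array, which are not independent replicates. The median gap between the arrays was 0.21 log2 units for sense units and 0.24 for silent windows. The arrays lay on different slides. Over all probes, 51.0% and 57.2% were well above background in the wild type channel and 58.5% and 62.6% in the *red1Δ* channel. Ratios were centred so that the mean over the dense sense units was 0, by subtracting 0.03 from replicate 1 and −0.06 from replicate 2. The median of all probes was below 0 on both arrays after this, and was −0.22 and −0.17 before centring.

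The first question was whether the labels hold, that is, whether a transcript was missing from the deletion strain. A search for features at a log2 ratio below −2 on both *red1Δ* arrays and above −1 on all 14 other arrays returned 1 feature, the unit 171859-171871 on the sparse part. Its log2 signal was 10.07 in the wild type channel of both arrays, and 5.65 and 5.09 in the *red1Δ* channel. The 2 channels were far apart on both arrays, at log2 ratios of −4.45 and −4.92. The mean log2 ratio was −4.68 ± 0.33 (SD, n = 2), with an adjusted p of 7.7e-09 (limma). The other mutants' arrays gave values between −0.26 and 1.14 for this unit. Of its 7 probes, 6 were lower on both arrays and 1 was higher. As 5 of the 7 probes were not well above background in *red1Δ*, the fall is given as a bound of at least 10.8-fold. Bounds here and below hold for the processed signals, and another background correction can give smaller changes. With normexp background correction and loess, the log2 ratio of 171859-171871 was −2.98, a smaller fall than its bound. Whether this unit is the *red1* gene was not looked up, because no probe is tied to a gene.

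Sense RNAs changed in both directions. Of the 4072 units, 648 rose (15.9%) and 531 fell (13%) at an adjusted p of 0.05 (limma, Benjamini-Hochberg over all 20813 units and windows), against 23.6% and 12.2% of all features tested, most of which are silent windows. All of these units had the same sign on both arrays. Most of the changes were small: 205 of the risen units reached a log2 ratio of 1 and 32 reached 2, while 126 of the fallen units reached −1 and 23 reached −2. The median log2 ratio was 0.78 over the risen and −0.71 over the fallen units. The split depends on where 0 is set. With the median of all probes at 0, 915 units were higher and 285 lower. Fewer units passed with a single *red1Δ* array, 253 higher and 148 lower without replicate 1, and 413 and 260 without replicate 2.

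**Figure D1:**
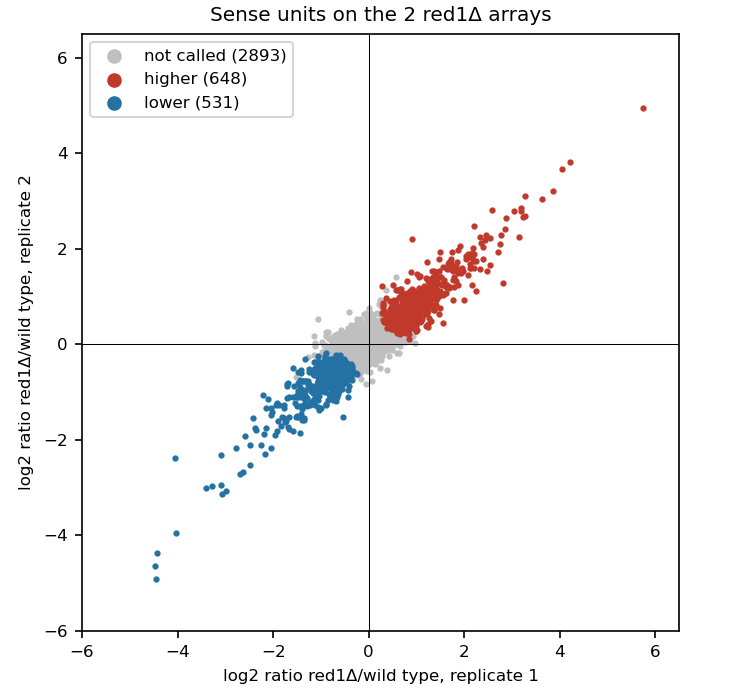
Log2 ratios of *red1Δ* over wild type for the 4072 sense units, with replicate 1 on the x axis and replicate 2 on the y axis. Each point is a unit; the 648 red points were called higher, the 531 blue points lower, and the grey points were not called. Called units lie near the diagonal, and the highest point is at 5.73 on replicate 1 and 4.95 on replicate 2.

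The highest ratio belonged to unit 8980-8996, of 9 probes. Its log2 signal was 7.88 and 8.14 in the wild type channels and 13.65 and 13.03 in the *red1Δ* channels. Each array thus showed a large gap in the same direction, with log2 ratios of 5.73 and 4.95. This corresponds to a 40.6-fold higher signal (log2 5.34 ± 0.55, SD, n = 2, adjusted p = 1.0e-07, limma). All 9 probes were higher on both arrays, but unevenly, with mean log2 ratios from 2.14 at the first probe to 6.91 at the centre. The probe just before the unit on its strand was at 3.69. After the last probe of the unit the signal fell to background in both channels, and the next unit on the strand, 800 bp further on, had a log2 ratio of 0.21 and was not called. The unit 400 bp before it rose by 1.24.

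Unit 23005-23025, of 11 probes, had log2 signals of 7.59 and 7.66 in wild type and 11.84 and 11.41 in *red1Δ*. Its log2 ratios of 4.22 and 3.82 gave a 16.2-fold higher signal. All of its probes rose, and so did RNA from the opposite strand, as described below. Unit 9302-9352 was the longest of the 12 units with the highest ratios, with 26 probes over a nominal 2000 bp. Its log2 signals were 9.45 and 9.54 in wild type and 13.52 and 13.14 in *red1Δ*, and its log2 ratios were 4.04 and 3.67 (14.4-fold). The rise ran along the whole unit, as all 26 probes were higher on both arrays. The units 24480-24502 and 74728-74738 followed, with log2 ratios of 3.53 ± 0.46 and 3.34 ± 0.42 (SD, n = 2).

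The other 7 of the 12 lay between 2.76 and 3.18. The units 157054-157058, 161356-161364 and 172853-172857 were on the sparse part, with log2 ratios of 3.18, 3.03 and 2.95 and 3 to 5 probes each. The units 68701-68713, 2118-2140, 102599-102619 and 81361-81379 were on the dense part, at 2.99, 2.97, 2.91 and 2.76. Every probe of the 12 units was higher in *red1Δ* on both arrays. In 11 of the 12, no unit lay on the opposite strand. The exception was 81361-81379, which rose while the unit 81362-81384 across from it fell by 0.76 on the log2 scale (−0.97 and −0.55 on the 2 arrays, adjusted p = 0.0034, limma).

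**Figure D2:**
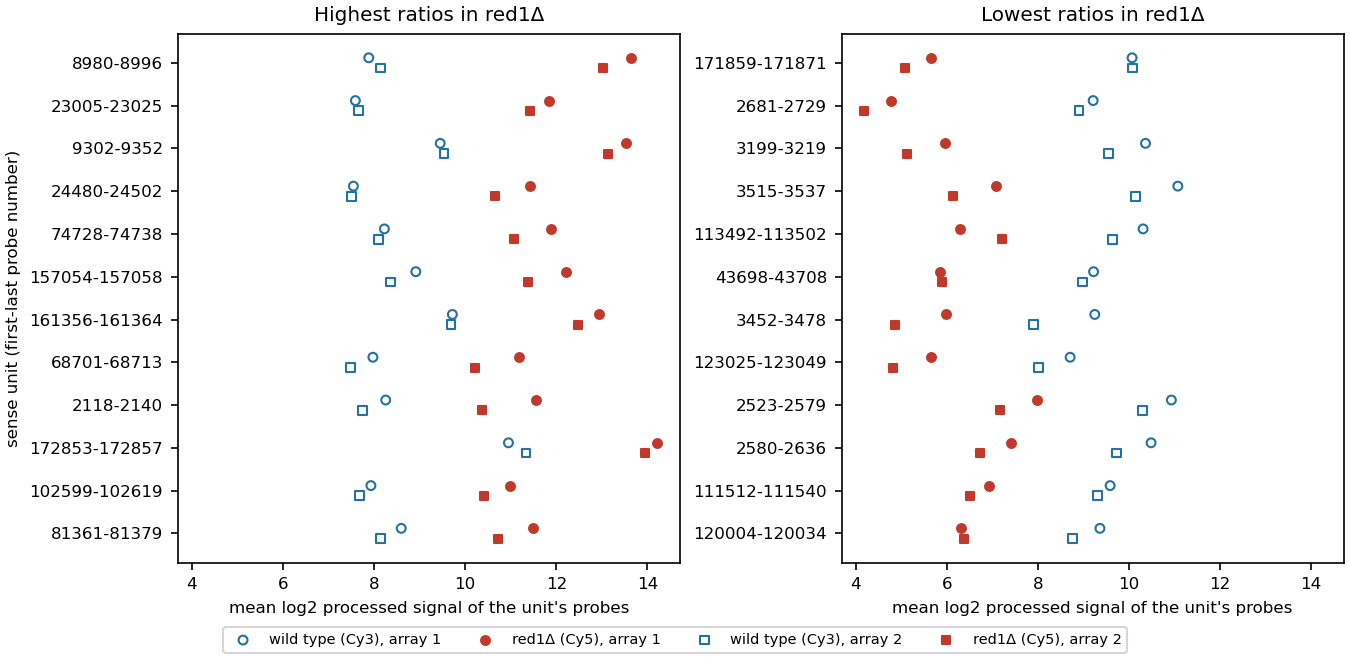
Mean log2 processed signal of the 12 sense units with the highest (left) and the 12 with the lowest (right) ratio in *red1Δ*, named by first and last probe on the y axis. Open blue symbols are wild type, filled red symbols are *red1Δ*, circles are array 1 and squares array 2; in every unit both *red1Δ* points lie on the same side of both wild type points.

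Among the units with the lowest ratios, after 171859-171871, the unit 2681-2729 had log2 signals of 9.21 and 8.90 in wild type and 4.77 and 4.19 in *red1Δ*. Its log2 ratios were −4.47 and −4.65, and 23 of its 25 probes were not well above background in *red1Δ*, so that the fall was at least 8.40-fold. With normexp background correction and centring on the array median the log2 ratio was −2.36, a smaller fall than this bound. RNA of this unit was near the limit of detection in the mutant. The units 3199-3219 and 3515-3537 had mean log2 ratios of −4.40 ± 0.05 and −3.99 ± 0.05 (SD, n = 2), with bounds of at least 10.6-fold and at least 10.7-fold. Of the 12 units, 113492-113502 differed the most between the arrays, at −4.05 and −2.38. Each of its probes was well above background in *red1Δ* on at least 1 array, and the mean fall was 9.27-fold (SD 1.18).

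The remaining units of this list were 43698-43708, 3452-3478, 123025-123049, 2523-2579, 2580-2636, 111512-111540 and 120004-120034, with log2 ratios between −3.20 and −2.71. Each held probes that were not well above background in *red1Δ* (10 of 14 in 3452-3478 and 8 of 13 in 123025-123049), and the falls were bounded at between at least 4.29-fold and at least 7.74-fold. Unit 43698-43708, with 3 such probes out of 6, fell by at least 6.34-fold inside the longer unit 43697-43827 of the opposite strand, which rose by 1.00 (0.93 and 1.07 on the 2 arrays, adjusted p = 1.6e-04, limma). The strands of the unit 3199-3219 moved together, since the unit across from it, 3202-3212, had a log2 ratio of −2.65.

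Of the 12 lowest units, 6 lay between probes 2000 and 3999. In that stretch, which was picked after its values were seen, 21 of 34 units were lower (61.8%) and 5 higher, with a median log2 ratio of −1.14. Across the other 73 stretches of 2000 probes, a median of 12.1% and at most 42.4% of the units were lower. The medians of these 34 units were −1.19 and −1.01 on the 2 *red1Δ* arrays, −1.20 and −0.73 on the *rrp6Δ* arrays, −0.95 and −1.01 on the *pab2Δ* arrays, and −0.02 and −0.30 on the *iss10Δ* arrays. The units of the stretch did not all move one way, as 2118-2140, with a log2 ratio of 2.97, and 2825-2835, with 2.09, rose within it. With the stretch left out, 643 units were higher and 510 lower.

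Called shares differed with the length of the units, without a test of the difference. On the dense part, 30.4% of 507 units with 6 to 10 probes rose and 17.4% fell, while of 335 units with more than 40 probes 9.55% rose and 11.9% fell. Between them the share that fell was not ordered by length, at 12.8% for 11 to 20 probes and 14.3% for 21 to 40. Shares were also set out by wild type signal, again with no test. In the lowest quintile of units by signal in the other arrays' wild type channels, 23.1% were lower and 20.2% higher. In the highest quintile, 7.12% were lower and 16.2% higher. The median log2 ratio went from −0.18 in the lowest to 0.05 in the highest quintile. Spots to which the scanner software gave a log ratio of 0 (22.7% and 17.4% of the probes) had median log2 ratios of processed signals of −0.25 and −0.20 before centring, and their part in this order was not tested.

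RNA also appeared from stretches that were silent in the control. Of the 12902 silent windows, 2876 were higher in *red1Δ* (22.3%) and 1323 lower (10.3%), with the same sign on both arrays in all of them. These shares are close to those of all features, 23.6% and 12.2%, of which silent windows are the greater part. The sizes were unequal. In 1657 of the higher windows the log2 ratio reached 1 and in 384 it reached 2, while only 71 of the lower windows reached −1. The median was 1.11 over the higher and −0.62 over the lower windows, and the highest single window was at 4.49. Without replicate 1, 2128 windows were higher and 202 lower, and without replicate 2, 1795 and 371. Over single probes, 8202 (4.71%) were well above background in *red1Δ* on both arrays and in wild type on neither, and 908 (0.522%) the reverse.

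In the windows that rose, the share of measurements well above background was 9.88% and 19.6% in the wild type channels and 49.4% and 57.1% in the *red1Δ* channels. Over all silent windows it was 11% and 17.8% in wild type and 20.9% and 27.1% in *red1Δ*. The windows were picked for their rise, so these shares describe it. The mean signal nevertheless stayed modest, since only 118 silent windows exceeded the signal threshold used for units on both arrays in *red1Δ*, of which 103 were called higher, and 15 did in wild type. In the windows that were lower, 51.7% and 38.3% of the probes had a deposited log ratio of 0, which the scanner software assigned to spots near background, and in all silent windows 48.3% and 37.3%. Their number, 1323, varied from 208 to 2111 between the processing alternatives other than a left-out array or a minimum size of change, whereas the number of risen windows varied from 2063 to 3518.

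Some neighbouring windows rose together, and whether more often than independent calls would give was not tested. The 2876 windows formed 2161 runs, of which 1661 were single windows. The other 500, with 1215 windows, held at least 2 adjacent windows and are called silent transcripts. Of these, 431 were on the dense part. Their mean log2 ratios ranged from 0.50 to 3.58 with a median of 1.23, and 48 reached 2. In 311 of the 500 (62.2%), over 50% of the length lay opposite a sense unit.

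The highest mean ratio was that of transcript 112056-112090, of 18 probes. Its log2 signal was 5.15 and 4.53 in wild type and 8.80 and 7.99 in *red1Δ*, and 16 of the 18 probes were not well above background in wild type. All 18 probes rose on both arrays. The log2 ratios were 3.62 and 3.53 (mean 3.58 ± 0.07, SD, n = 2), and since the wild type signal was near background the rise was at least 4.32-fold, a lower bound than that of the next 2 transcripts. No unit lay opposite it. The next unit on its strand, 112118-112150, which began 1120 bp further on, rose by 2.24, and in the plot of signal along these regions the *red1Δ* signal continued from one into the other.

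Transcript 64591-64613 lay wholly opposite the unit 64582-64634. Its log2 signal was 5.74 and 5.18 in wild type and 9.23 and 8.70 in *red1Δ*, a rise of at least 6.03-fold (log2 3.52 ± 0.09, SD, n = 2). The unit across from it had log2 ratios of 0.27 and 0.33 and was not called (adjusted p = 0.16, limma). Signal from the strand opposite the unit thus rose without a called change of the unit. Transcript 55722-55744 rose by at least 5.16-fold, with log2 ratios of 3.41 and 3.25.

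**Figure D3:**
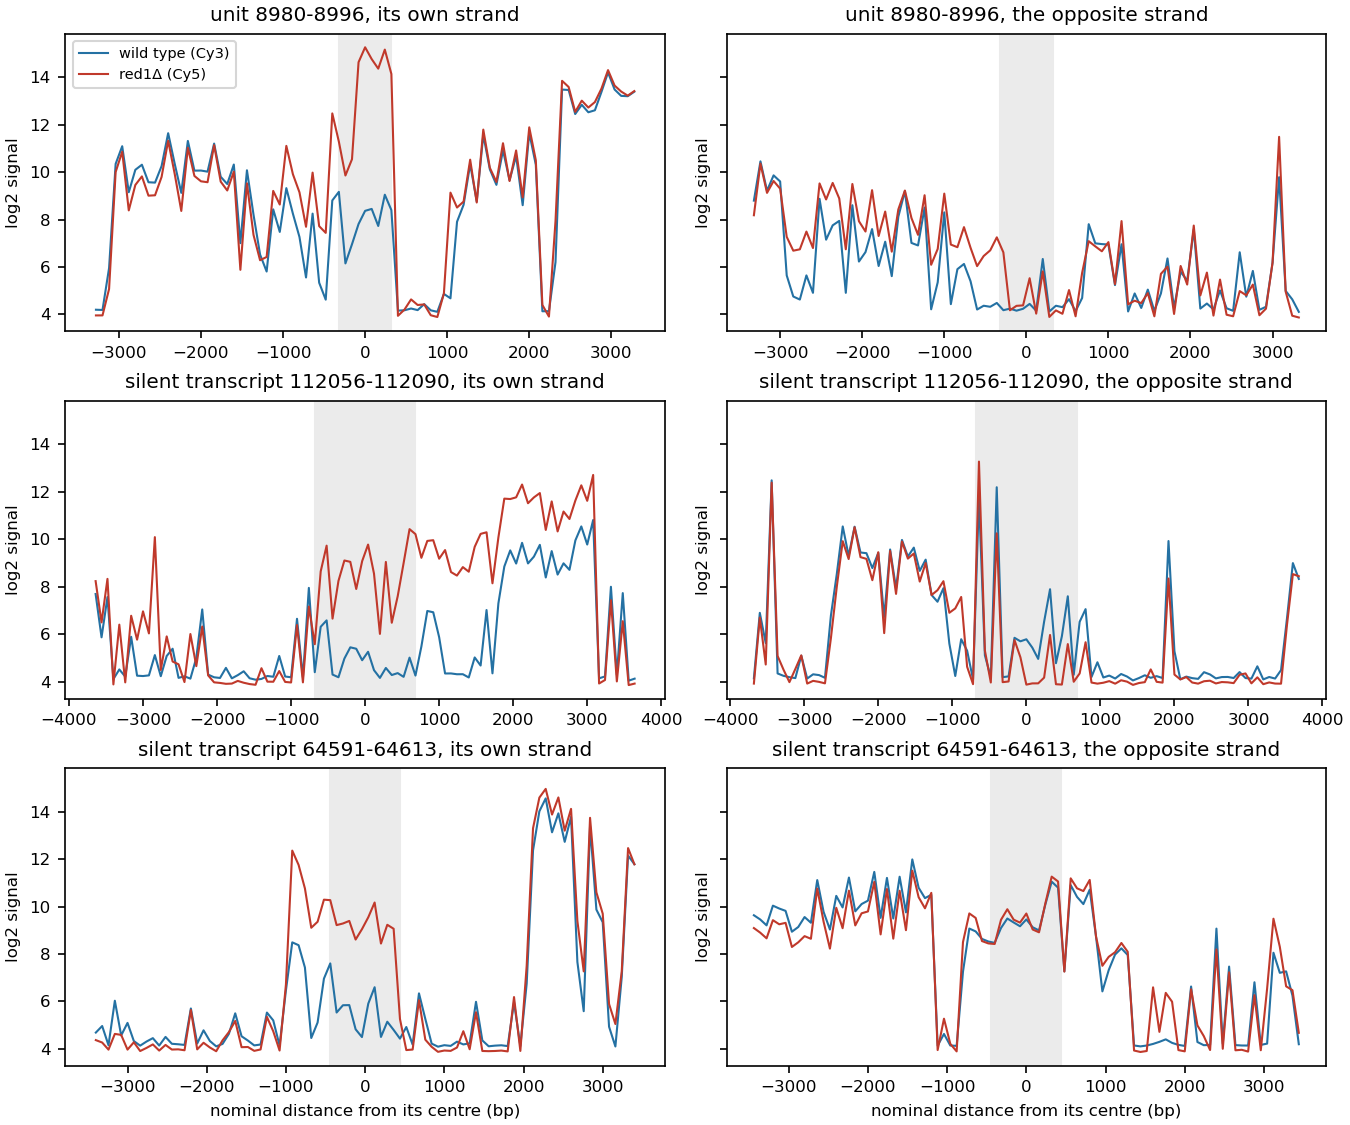
Mean log2 processed signal of 2 arrays along unit 8980-8996 and the silent transcripts 112056-112090 and 64591-64613 (top to bottom), on their own strand (left) and the opposite strand (right), against nominal distance from the centre in bp. Blue lines are wild type, red lines *red1Δ*, and grey bands mark the named feature; the red line stands above the blue within the bands on the left and the lines run close together opposite 64591-64613.

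The other 9 of the 12 highest silent transcripts had log2 ratios between 2.44 and 2.90 and bounds between 2.07-fold and 4.02-fold. Some of them adjoined a unit of their own strand. Transcript 28036-28082 began 80 bp after the unit 27954-28034, which itself fell by 0.86 (adjusted p = 0.0024, limma), while the transcript was at 2.65. Transcript 75008-75054 filled the space between 2 units, 74962-75006 and 75056-75086, each 80 bp away, at log2 ratios of 0.36 and 0.05 that were not called. Its own log2 ratios were 2.48 and 2.50. Transcript 23006-23028 lay opposite unit 23005-23025, and both strands rose there, at log2 ratios of 2.44 and 4.02.

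The remaining 6 were 20208-20230 (2.90), 145180-145214 (2.87), 91483-91529 (2.79), 107730-107764 (2.76), 16699-16721 (2.66) and 60963-60985 (2.50). Of the 12, 10 lay at least in part opposite a unit, and 2 of these 10 units were called, 23005-23025 and 60966-60994, both higher (4.02 and 0.76). The longest silent transcripts were weaker. The 4 longest, 83167-83249, 55045-55127, 43870-43940 and 118432-118502, spanned 36 to 42 probes with log2 ratios of 1.57, 1.54, 1.71 and 1.65. Their bounds were between 1.04-fold and 1.31-fold, because most of their probes were not well above background in wild type.

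Silent windows rose most often beside a unit of the same strand. On the dense part, 22.1% of 9735 silent windows were higher. Of those not opposite a unit, 33.3% were higher where a unit of their own strand lay within 600 bp (n = 1582) and 25.2% where none did (n = 1887). Of those opposite a unit, the shares were 24.1% (n = 1941) and 15.9% (n = 4325), and in the last group 14.1% were lower. Windows that adjoined risen units were higher more often than those that adjoined fallen units. Among units with adjoining silent windows of the same strand, at least 1 such window rose for 45.4% of the risen units, 18.1% of the fallen units and 32.5% of all. Opposite the units, the shares were 38.1%, 29.3% and 37.3%. The differences between these shares were not tested, as neighbouring windows are not independent.

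**Figure D4:**
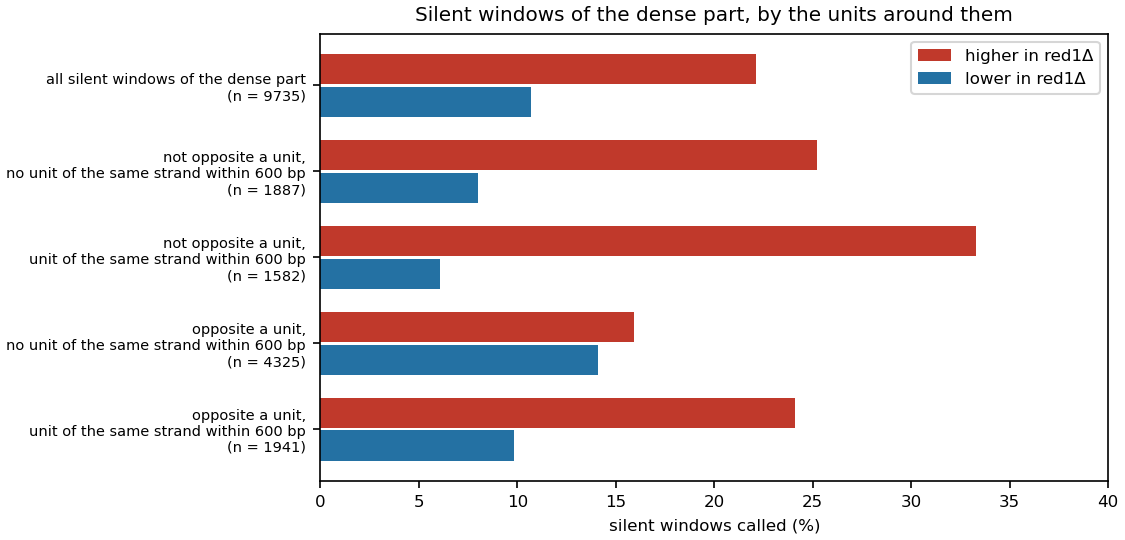
Percentage of silent windows on the dense part that were called higher (red) or lower (blue) in *red1Δ*, for all of them and by whether a sense unit lay opposite or within 600 bp on the same strand, with the number of windows in brackets. The bar for windows beside a unit and not opposite one is the longest, at 33.3%.

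The deletion of *iss10* offers the closest comparison, since both strains were set against p918 by the labels and 1 *iss10Δ* array shared a slide with *red1Δ* replicate 1. A dye bias of a probe that is the same on all arrays cancels in the difference between these mutants. The offset near background differed between the arrays. Spots given a log ratio of 0 had median log2 ratios of −0.25 and −0.20 in *red1Δ*, and −0.07 and 0.20 in *iss10Δ*, before centring. Whether the same RNA extract served as control is not stated. In the difference, 286 units were higher in *red1Δ* than in *iss10Δ* (7.02%) and 152 lower (3.73%), while 1864 silent windows were higher (14.4%) and 94 lower (0.729%), against 14.7% and 1.82% of all features. Of the 500 silent transcripts, 446 held at least 1 window higher than in *iss10Δ*, and in 211 every window was. The transcripts were built from windows called higher in *red1Δ*, and the same *red1Δ* values enter the difference. These 2 counts are therefore a description. Without *red1Δ* replicate 1, 91 units and 1394 silent windows were higher than in *iss10Δ*, and without replicate 2, 152 and 1078.

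Weakly transcribed stretches of wild type cells, neither units nor silent, changed in a larger share of windows than units or silent windows did. Of the 3839 dim windows, 1382 were higher in *red1Δ* (36.0%) and 687 lower (17.9%), and 916 were higher than in *iss10Δ* (23.9%) and 132 lower (3.44%), by the same limma fit. Over all features the shares were 23.6% and 12.2% against wild type, and 14.7% and 1.82% against *iss10Δ*. The differences between these shares were not tested.

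For the named members, which were chosen for extreme *red1Δ* ratios, the values of both mutants are set side by side as a description. For 112056-112090 the *iss10Δ* arrays gave log2 ratios of 0.38 and 1.08, against 3.62 and 3.53 in *red1Δ*. For 75008-75054 they gave −0.04 and −0.05, against 2.48 and 2.50. Of the 12 highest silent transcripts, 1 reached a mean of 1 in *iss10Δ*, 91483-91529, at 1.49 and 1.37. Of the 12 highest sense units, 6 reached a mean of 1 there. Unit 9302-9352 stood at 2.20 and 1.30 and unit 23005-23025 at 1.70 and 1.30, both below *red1Δ*. Unit 2118-2140 was at −0.74 and −0.58 in *iss10Δ* and at 3.26 and 2.69 in *red1Δ*.

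**Figure D5:**
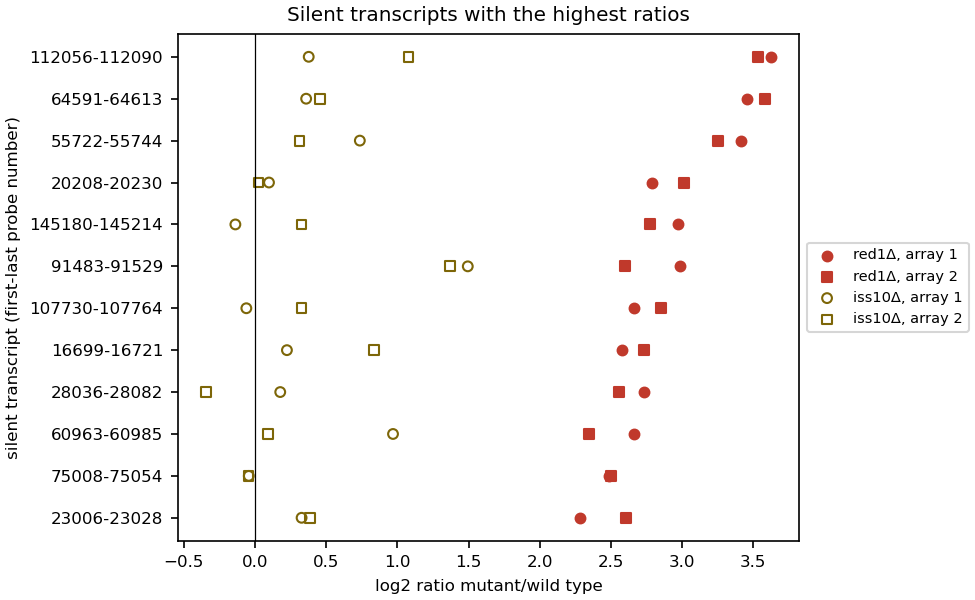
Log2 ratio of mutant over wild type (x axis) for the 12 silent transcripts with the highest ratio in *red1Δ* (y axis, first and last probe). Filled red symbols are the *red1Δ* arrays and open symbols the *iss10Δ* arrays, with circles for replicate 1 and squares for replicate 2; in every transcript both *red1Δ* values lie above both *iss10Δ* values.

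Within the shared slide, the difference between *red1Δ* replicate 1 and *iss10Δ* replicate 1 had a median of 1.04 over the 2876 risen silent windows, against −0.01 over all silent windows, and of 0.64 over the 648 risen units, against 0.02 over all units. It had the sign of the *red1Δ* ratio in 99.3% of the risen silent windows and 96.3% of the risen units, against 85.3% of all silent windows and 83.9% of all units. As *red1Δ* replicate 1 took part in the calls, these shares are a description. Over the called units, the *iss10Δ* array on that slide was itself nearer to *red1Δ*. Its median log2 ratio over the risen units was 0.24, against −0.13 on the *iss10Δ* array of another slide, and over the fallen units −0.23 against 0.05. The risen silent windows went the other way, at −0.01 against 0.14. The lower silent windows were at −0.31 against −0.06. With slide as a random block, 374 units and 2168 silent windows were higher than in *iss10Δ*, and they included all 286 units and all 1864 windows called without it.

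Values of the other mutants for the same members stand beside these. Over the 12 highest sense units, the median log2 ratio was 3.10 in *red1Δ*, 2.47 in *rrp6Δ*, 2.00 in *pab2Δ*, 1.63 on the single *mmi1Δ mei4-P572* array, 1.41 in *mtl1-17*, 0.23 in *cid14Δ* and −0.44 in *sen1Δ*. All 12 reached 1 in *rrp6Δ*, 11 on the *mmi1Δ* array and none in *sen1Δ*. Over the 12 highest silent transcripts the medians were 2.77 in *red1Δ*, 2.82 in *rrp6Δ*, 2.10 in *pab2Δ*, 1.67 in *mtl1-17* and 1.12 on the *mmi1Δ* array, where 6 of them reached 1. In *cid14Δ* the median was 0.59 and 4 of them reached 1, and in *sen1Δ* it was 0.21. Over the 12 lowest sense units without 171859-171871, the medians were −3.13 in *red1Δ*, −2.34 in *rrp6Δ*, −2.94 in *pab2Δ* and −2.29 on the *mmi1Δ* array. They were −1.505 in *mtl1-17*, −0.63 in *cid14Δ*, −0.56 in *iss10Δ* and 0.04 in *sen1Δ*. On the single *rmn1Δ* array the medians were 0.37 over the highest units, 0.36 over the silent transcripts and −0.50 over these lowest units. One of the 2 arrays of each of *rrp6Δ* and *pab2Δ* shared a slide with *red1Δ* replicate 2. On the array of that slide and on the other, the medians over the 12 highest units were 2.56 and 2.48 in *rrp6Δ* and 2.05 and 1.91 in *pab2Δ*, and over the silent transcripts 2.90 and 2.73, and 2.07 and 2.12. Over the lowest units they were −2.20 and −2.49, and −2.58 and −3.31. The members were chosen by their *red1Δ* values, which favours *red1Δ* in each order, and the differences were tested against *iss10Δ* only.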

How the data were processed

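The authors quantified the arrays with Agilent Feature Extraction (10.7.3.1 per the submitters' processing notes). The deposited processed signals are intensity values with background subtracted and dyes normalized. The deposited log ratio is on the log10 scale, and the series table the authors deposited holds log2 ratios in which 66.1% and 68.8% of the *red1Δ* values are 0. Where not 0, they equal the scanner ratios (mutant over control). Here, log2 ratios of processed signals were computed, with the 15 and 10 outlier probes of the *red1Δ* arrays left out. No probe was saturated, and 3377 other spots per array were not used. Each array was centred on the mean of the dense sense units. Unit bounds came from Otsu's method on wild type signals smoothed by a running median of 5 probes (3 on the sparse part), in runs of at least 6 probes (3 on the sparse part).

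All 16 arrays entered 1 limma fit with 9 mutants as groups, 7 residual and 6.91 prior degrees of freedom, and no covariates. Tests were two-sided with Benjamini-Hochberg adjustment. At an unadjusted p of 0.05, 9558 features passed. For bounds ("at least N-fold"), signals of probes not well above background on either *red1Δ* array were raised where they lay below a floor. The floor was the lowest signal well above background of that array and channel, after Aquantile scaling between arrays. These bounds remain open to dye bias, and normexp can give smaller changes. Named were the 12 highest and 12 lowest called units, and the 12 highest and 4 longest silent transcripts. The members and lists were chosen with earlier results of these data known.

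On simulated data with 200 of 20813 features changed in *red1Δ*, 0 were recovered at a log2 change of 0.5, 107 (53.5%) at 1 and 195 (97.5%) at 2, with 0, 5 and 10 false calls. The simulated noise was independent between features, and far fewer features changed than the 4906 higher and 2541 lower called in the data. With fewer changes the adjustment is stricter, so these shares do not give the recovery in the data, where risen units were called down to 0.37. The number of arrays limits the precision. Python 3.11.15, numpy 2.4.6, pandas 2.3.3, scipy 1.17.1, matplotlib 3.10.9, R 4.3.3 and limma 3.58.1 were used. Alternatives covered centring, summary over probes, normexp (offset 50), the source of the ratio, dim probes, slide, replicate number, unit definition and left-out replicates. A later window start was added after seeing the data. Gene names, the *mei4* and other meiotic gene lists and the subunit lists were not analysed here.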

Additional observations from a re-analysis of the deposited data

Results flagged for a closer look

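A difference between *red1Δ* and *iss10Δ*, tested as a contrast in the limma fit, was found for 286 sense units and 1864 silent windows that were higher in *red1Δ*. These are 7.02% of the units and 14.4% of the silent windows, against 14.7% of all features. The named members below were picked by their *red1Δ* ratios, which also enter the difference, so that their differences are given as values and not as independent evidence. Among the 12 sense units with the highest ratio in *red1Δ*, all 12 were past the threshold. The differences in log2 ratio were 5.08 for 8980-8996, 2.53 for 23005-23025, 2.10 for 9302-9352, 2.18 for 24480-24502, 2.39 for 74728-74738 and 2.38 for 157054-157058. They were 1.98 for 161356-161364, 1.93 for 68701-68713, 3.63 for 2118-2140, 2.50 for 172853-172857, 1.74 for 102599-102619 and 2.18 for 81361-81379.

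Among the 12 lowest, 11 were past the threshold. The differences were −5.12 for 171859-171871, −3.65 for 2681-2729, −3.89 for 3199-3219, −3.42 for 3515-3537, −2.27 for 113492-113502 and −2.61 for 43698-43708. They were −2.75 for 3452-3478, −2.84 for 123025-123049, −2.48 for 2523-2579, −2.37 for 2580-2636 and −2.38 for 111512-111540. The difference of −1.43 for 120004-120034 missed the threshold (adjusted p = 0.054, limma).

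Of the 16 named silent transcripts, 12 were past the threshold in every window. The differences were 2.85 for 112056-112090, 3.11 for 64591-64613, 2.81 for 55722-55744, 2.84 for 20208-20230, 2.78 for 145180-145214 and 2.62 for 107730-107764. They were 2.13 for 16699-16721, 2.73 for 28036-28082, 2.54 for 75008-75054, 2.09 for 23006-23028, 1.64 for 83167-83249 and 1.78 for 118432-118502. One *iss10Δ* array shared a slide with *red1Δ* replicate 1. With slide as a random block, 374 units and 2168 silent windows were higher in *red1Δ*, among them all 286 and 1864.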

How the results depend on the processing

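The direction of all 24 named units (312 values) and 16 named silent transcripts (208 values, between 0.59 and 3.89) was kept under every alternative run on them, and the units stayed past the threshold. The required log2 ratio of at least 1 counts among these alternatives but leaves each value as it was. Most of these members were chosen for extreme ratios, so the kept direction is a description. Their size depended on the background correction: with normexp and loess the log2 ratios were 53.5% to 93.7% of those reported in the named units and 37.8% to 59.5% in the named transcripts, and with normexp and the array median 48.1% to 95.7% and 48.6% to 63.6%. Unit 2681-2729 went from −4.56 to −2.36 with the array median, and transcript 112056-112090 from 3.58 to 2.02 with loess, below 64591-64613 at 2.09. Without 1 *red1Δ* replicate, which leaves a lone array assumed to vary like the other mutants, 253 to 413 sense units were higher and 148 to 260 lower, 1795 to 2128 silent windows were higher and 202 to 371 lower, and against *iss10Δ* 91 to 152 units and 1078 to 1394 silent windows were higher. The smaller counts of units came without replicate 1 and those of risen silent windows without replicate 2. With a log2 ratio of at least 1 required, 205 units were higher and 126 lower, 1657 silent windows were higher and 71 lower, and 147 units were higher than in *iss10Δ*. With the median of all probes at 0, 285 units and 401 silent windows were lower. With a unit threshold 1 log2 unit lower, 804 units and 2111 silent windows were lower. The lower silent windows numbered 208 with the median over probes, 537 with normexp and the array median, 677 with the deposited log ratio and 344 with the series table. The cause was not tested. Deviations of same-numbered arrays correlated with those of *red1Δ* at 0.37 for *iss10Δ*, whose replicate 1 shared a slide with *red1Δ* replicate 1. For the other mutants with 2 arrays the correlations lay between −0.13 and 0.10. The main fit did not pair arrays by number. With a replicate block 654 units were higher and 540 lower, and 2893 silent windows higher and 1341 lower. With slide as a random block, 625 units were higher and 511 lower, and 2971 silent windows higher and 1313 lower. Signal over background limits the silent windows and the fallen units, whose folds are bounds that normexp can go below.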
